A study of Mus musculus with 2 samples.

Results

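Cell cycle and DNA replication genes were examined in the gastrocnemius, the main calf muscle of the mouse, after its hindlimb had been held in a plaster cast. The genes were chosen by the names printed on the array. They were the cyclins A, B, D and E, the numbered Cdk and Cdc genes, the Mcm, Orc, Aurk, Plk, Cenp, Bub and E2f families, the ribonucleotide reductase genes Rrm1, Rrm2 and Rrm2b, and Mki67, Top2a, Pcna and Tk1. This gave 131 genes with 184 probes, of 25472 genes with a symbol on the array, and the rule itself uses names alone. Matching by name also took in 22 genes with other known work, such as the small GTPase Cdc42 and its effectors, and 23 further Cdk genes, many of which act in transcription or in neurons.

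The cast group was made up of male wild-type C57BL/6 mice aged 9 weeks whose hindlimb had spent 11 days immobilised in a plaster cast, which takes the load off the muscle. The control group was made up of male wild-type C57BL/6 mice aged 9 weeks without a cast. As the labels are read here, the RNA of 6 mice was combined into 1 pool per group. Each pool went onto 1 one-colour Agilent array, so that each group was n = 1 array. No value has a replicate, a test or a p-value, and the differences describe these 2 pools. The number of arrays limits the precision.

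Muscle fibres are multinucleate cells that have left the cell cycle for good, and the dividing cells of a muscle are its satellite cells, fibroblasts, endothelial cells and leukocytes. Entry into the cycle is set by D cyclins with Cdk4 and Cdk6, which phosphorylate the retinoblastoma protein and so release E2F factors, and E2F factors then activate genes for DNA synthesis. Origin recognition complex and Mcm proteins license replication origins, ribonucleotide reductase supplies the building blocks of DNA, and cyclin B with Cdk1, the Aurora and Polo-like kinases and the centromere proteins carry cells through mitosis. Several of these proteins also have work outside division, so that a transcript of this kind in muscle need not come from a dividing cell.

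Signals are given as scaled signal, in which 100 is the 75th percentile of all gene probes on the same array. A log2 ratio is log2 of the cast signal over the control signal after this scaling, so that a positive value means higher in cast muscle. A gene was called measured when the scanner software flagged a probe of it as well above background on the cast and on the control array, and the value is that of its brightest such probe. Signals of different probes are not comparable with each other. The only error that these arrays give is that between spots of a probe on 1 array. Taken from 259 probes with several spots, this spot-level SD of a ratio on the log2 scale was 0.16, 0.10, 0.09 and 0.08 in 4 classes of brightness, the dimmest first. Genes given with an SD below had 1 spot of their probe on each array. Their SD is that of the brightness class and was not measured on the gene itself. Variation between animals and between hybridisations is not in it.

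Each array had 44397 spots. Of the gene probes, 56.8% were well above background on the cast array and 60.6% on the control array, and no gene spot was saturated. The 75th percentile before scaling was 486 on the cast array and 385 on the control array. The lowest scaled signal that passed the flag was 4.23 on the cast array and 3.40 on the control array, so that a dim gene passed less easily on the cast array. All 8 fibre markers were measured on both arrays and their summed scaled signal was 292977 on the cast array and 344558 on the control array.

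The probes on which the results below turn are 60 bases long. They are printed in lower case with no part marked, because each value below is the signal of exactly these letters and says nothing of a transcript that lacks them. The first 3 belong to the genes with a signal 2-fold or more above the control array.
E2f2, mm9 chr4:135750562-135750621, plus strand: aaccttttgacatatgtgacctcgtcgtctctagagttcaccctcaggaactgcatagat
Rrm2, mm9 chr12:25398824-25398883, plus strand: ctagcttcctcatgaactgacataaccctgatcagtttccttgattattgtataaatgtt
Mcm10, mm9 chr2:4911785-4911844, minus strand: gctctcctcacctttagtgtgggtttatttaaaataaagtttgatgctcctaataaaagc
The next 5 belong to those 2-fold or more below it. The Cenpa probe spans an intron, which is why its interval is longer than the probe.
Cenpa, mm9 chr5:30974916-30975386, plus strand: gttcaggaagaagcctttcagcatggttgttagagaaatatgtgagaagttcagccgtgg
Aurka, mm9 chr2:172181726-172181785, minus strand: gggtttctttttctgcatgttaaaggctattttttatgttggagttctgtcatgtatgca
Cdc40, mm9 chr10:40561540-40561599, minus strand: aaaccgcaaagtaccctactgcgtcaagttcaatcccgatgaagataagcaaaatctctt
E2f6, mm9 chr12:16833463-16833522, plus strand: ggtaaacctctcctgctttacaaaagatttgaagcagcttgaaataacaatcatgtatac
Ccnd1, mm9 chr7:152116202-152116261, minus strand: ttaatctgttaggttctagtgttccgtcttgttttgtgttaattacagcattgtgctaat
The last pair was well above background on 1 array only, Bub1b on the cast array and Plk5 on the control array.
Bub1b, mm9 chr2:118466830-118466889, plus strand: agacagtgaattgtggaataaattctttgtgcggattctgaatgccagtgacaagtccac
Plk5, mm9 chr10:79828140-79828199, plus strand: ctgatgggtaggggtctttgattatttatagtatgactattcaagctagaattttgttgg

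Most of these genes could be measured in muscle on both arrays. Of the 131, 101 (77.1%) were well above background on both, against 59.3% of the genes outside the group. A further 3 (2.29%) were above background on the cast array only, against 0.829% of other genes, and 4 (3.05%) on the control array only, against 4.38% of other genes. The remaining 23 (17.6%) were below background on both, against 35.5% of other genes.

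Undetected genes were found in most roles. Among cyclins A and B, Cdk1 and the Cdc25 phosphatases, 4 of 9 were measured, and Ccnb1, the main mitotic cyclin, was below background with all 3 of its probes. Top2a, the topoisomerase of dividing cells, Aurkb, Bub1 and Plk4 were below background on both arrays, as were Cdc6, Cdc7, Mcm9 and Orc1 of the licensing group, Ccne2 and Cdk6 of the G1 group, and Cenpf, Cenph, Cenpi, Cenpm and Cenpn. By contrast, 21 of the 23 other Cdk genes, 20 of the 22 genes with other known work and all 5 ubiquitin ligase genes were measured. A gene below background has no ratio, and for this array that says only that its probe gave no signal above the limit.

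**Figure D1:**
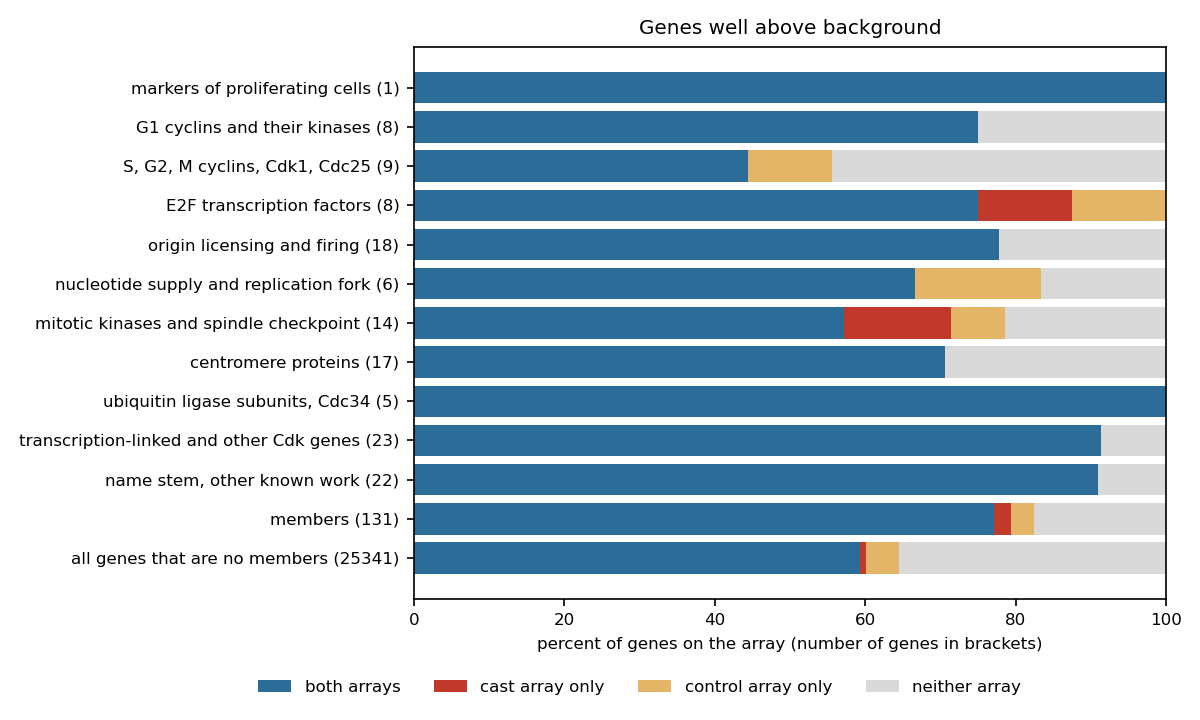
Share of genes (percent, horizontal axis) well above background on both arrays, on the cast array only, on the control array only and on neither, for each role of the cell cycle genes, for all 131 of them and for the 25341 other genes. The cyclin A and B, Cdk1 and Cdc25 role has the lowest share on both arrays, 44.4%, and all 131 genes together have 77.1% against 59.3% of the other genes.

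Among the 101 measured genes there was no common shift between cast and control muscle. Their median log2 ratio was -0.03, the same as that of all 15135 measured genes, with 46 genes (45.5%) above 0 and 55 below. Of all measured genes, 47% were above 0. The quartiles were -0.24 and 0.16, and 86 genes (85.1%) were within 1.5-fold, against 84.7% of all measured genes. The extremes were E2f2, at 1.67, and Cenpa, at -1.70.

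Large differences had shares like those of the whole array, with 1 exception. On the cast array, 3 genes (2.97%) were 2-fold or more higher, against 2.23% of all measured genes, and 5 (4.95%) were 2-fold or more lower, against 2.11%. At least 1.5-fold higher were 7 (6.93%), against 7.04%, and at least 1.5-fold lower were 8 (7.92%), against 8.25%. These shares are near the background, apart from that of genes 2-fold lower, which rests on 5 genes. In bulk tissue, a change in the number of cells of a type and a change of RNA per cell cannot be told apart. The genes just past the 1.5-fold threshold were Cdk11b, at 0.66, and Ccnd2, at -0.67, and those just short of it were Cdc14a and Cdc16, both at -0.58, Cenpl, at -0.57, and Orc2, at 0.52.

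The scaling sets where 0 lies. With no scaling, or with scaling on the 7 spike-in controls, the median of all measured genes moved up by 0.34 and 0.35 and the share of higher genes among all 2-fold calls was 87.4% and 87.9%, against 51.4% with the 75th percentile. A log2 ratio between -0.34 and 0 is therefore above 0 on those scales. Of all measured genes, 79.9% and 80.7% were above 0 there, against 47% with the 75th percentile. The sizes below are relative to the other genes of the array.

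**Figure D2:**
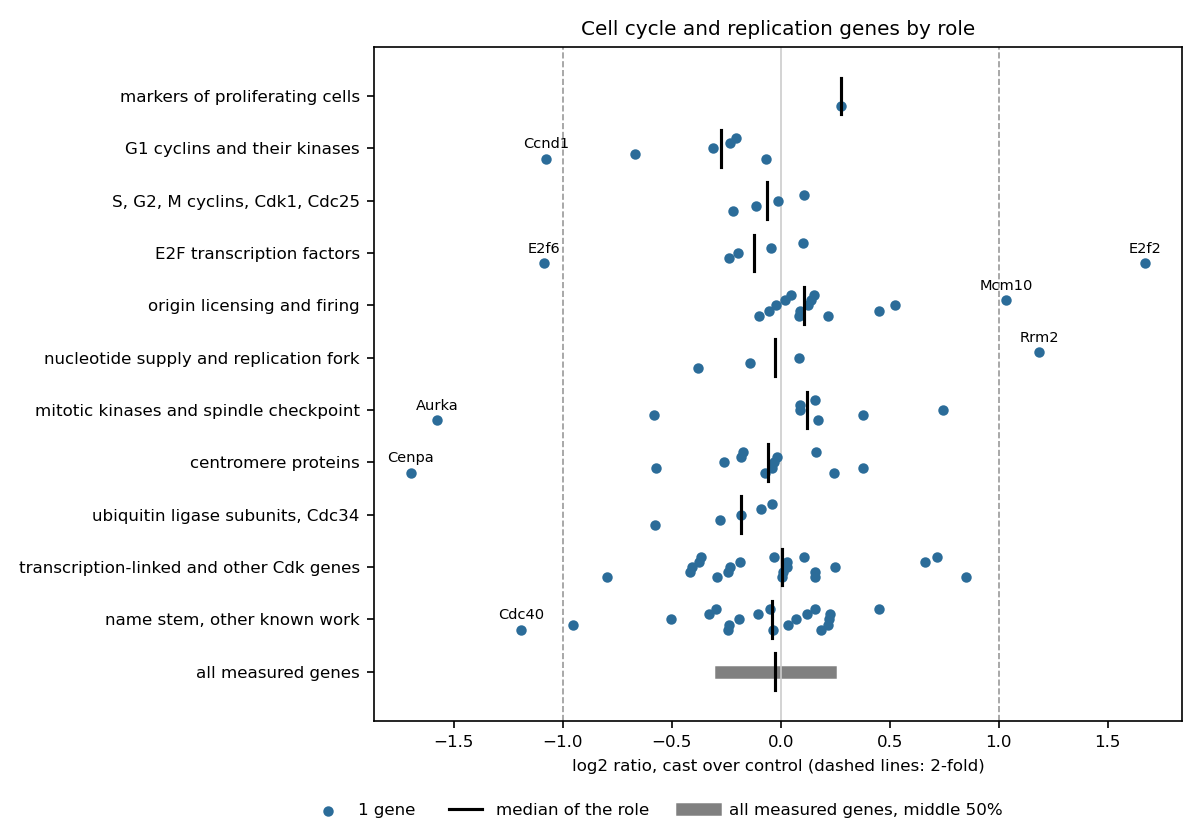
Log2 ratio of cast over control (horizontal axis) for each of the 101 measured genes, 1 point a gene, by role, with the median of each role as a black bar and the middle 50% of all 15135 measured genes in grey; dashed lines mark 2-fold. Most points lie between the dashed lines, and the 8 named genes lie beyond them. All measured G1 genes and all ubiquitin ligase genes are below 0, while 47% of all measured genes are above 0.

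The E2F family held the highest value of the group and 1 of the lowest. E2f2, an activating E2F that drives S phase genes, had a scaled signal of 294 on the cast array and 92.2 on the control array, a 3.19-fold difference with a log2 ratio of 1.67 and a spot-level SD of 0.09. E2f6, a repressing member that lacks an activation domain and works with polycomb proteins, had 1015 on the cast array and 2153 on the control array, 2.12-fold lower with a log2 ratio of -1.08 and an SD of 0.08. Each of these genes was measured by 1 probe.

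The other E2F genes lay near 0. E2f1, the best known activator, was at 6.24 on the cast array and 6.44 on the control array, a log2 ratio of -0.04. E2f3, another activator, was at 132 on the cast array and 152 on the control array, a ratio of -0.20. E2f4, the main repressor of resting cells, was at 9.23 on the cast array and 8.59 on the control array, a ratio of 0.10. The signals of E2f1 and E2f4 were close to the background limit, where a difference could go unseen. E2f7, an atypical repressor, was at -0.24 with its brighter probe and at 0.30 with its dimmer one. Its partner E2f8 was above background on the cast array only, at 4.91 there and 1.09 on the control array, at least 1.44-fold higher. E2f5, a repressor like E2f4, passed on the control array only, at 4.50 on the cast array and 6.75 on the control array, 1.5-fold lower as a plain ratio and not a limit, because the dim signal was itself above the lowest called value. The family median was -0.12, and it was 0.22 with no scaling.

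The G1 cyclins and their kinases were below 0 throughout. All 6 measured genes had negative log2 ratios, with a median of -0.27, while 47% of all measured genes were above 0. Cyclin D1 (Ccnd1), which couples growth signals to Cdk4, had a scaled signal of 38.2 on the cast array and 80.5 on the control array, 2.11-fold lower with a log2 ratio of -1.08 and a spot-level SD of 0.10. Cyclin D2 (Ccnd2) had 54.3 on the cast array and 86.4 on the control array, 1.59-fold lower. These were the only G1 genes past 1.5-fold.

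Cyclin D3 (Ccnd3), the D cyclin that stays on in differentiating muscle, had 415 on the cast array and 479 on the control array, a log2 ratio of -0.21, and its second probe gave -0.25. Cyclin E1 (Ccne1), which acts with Cdk2 at the start of S phase, was at -0.31. The genomic interval listed for its probe covers only 24 bases, and a second Ccne1 probe was below background on both arrays. Cdk2 itself was at -0.23, and Cdk4, the partner of the D cyclins, at -0.07 with 481 on the cast array and 505 on the control array. With no scaling the median of the role was 0.07 and with spike-in scaling 0.08, while Ccnd1, at -0.74 with no scaling, and Ccnd2, at -0.33, stayed below 0.

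Genes of S phase entry and of mitotic entry were close to equal on the arrays where they could be measured. Cyclin A2 (Ccna2) had a scaled signal of 6.56 on the cast array and 7.09 on the control array, and cyclin B2 (Ccnb2) had 8.30 on the cast array and 8.37 on the control array. These signals were close to the background limits of 4.23 on the cast array and 3.40 on the control array, where a difference could go unseen. The phosphatases Cdc25a and Cdc25b, which activate Cdk complexes, were at -0.22 and 0.11. Cdk1, the mitotic kinase, passed on the control array only, with 4.13 on the cast array and 4.95 on the control array, at least 1.17-fold lower, and its other 2 probes, which overlap by 41 bases, were below background on both. The 4 measured genes of this role were within 1.5-fold, and the other 5, among them Ccna1, Ccnb3 and Cdc25c, have no ratio.

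Origin licensing genes leaned above 0, with a median of 0.11. Of the 14 measured genes, 11 (78.6%) were positive, against 47% of all measured genes. The Mcm2 to Mcm7 subunits, which form the ring of the replicative helicase, lay close together. Mcm2 was at -0.10, Mcm3 at 0.13, Mcm4 at 0.15, Mcm5 at 0.02, Mcm6 at 0.22 and Mcm7 at 0.14, a median of 0.13. As examples, Mcm6 had a scaled signal of 144 on the cast array and 124 on the control array, and Mcm2 had 49.9 on the cast array and 53.5 on the control array. The spot-level SD was 0.09 for Mcm6 and 0.10 for Mcm2.

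Mcm10, a separate protein that helps the loaded helicase to start, had 9.58 on the cast array and 4.68 on the control array, 2.05-fold higher with a log2 ratio of 1.03 and a spot-level SD of 0.16. Both signals were close to the background limit. With normexp background correction, another way to remove background, the ratio was 0.23. That setting also adds an offset of 50 to every unscaled signal, which draws the ratio of any dim gene towards 0. Cdc45, which joins the Mcm ring to form the active helicase, had 6.80 on the cast array and 4.98 on the control array, a log2 ratio of 0.45. Among origin recognition subunits, Orc2 was at 0.52, with 36.6 on the cast array and 25.4 on the control array, while Orc4, Orc5 and Orc6 were at -0.05, 0.09 and 0.05. Mcm8, a helicase of DNA repair, was at 0.09.

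Nucleotide supply genes went apart. Rrm2, the small subunit of ribonucleotide reductase, made in S phase, had a scaled signal of 59.8 on the cast array and 26.3 on the control array, 2.28-fold higher with a log2 ratio of 1.19 and a spot-level SD of 0.10. Its large-subunit partner Rrm1 had 189 on the cast array and 245 on the control array, a log2 ratio of -0.38. Rrm2b, the p53-induced small subunit used outside S phase, passed on the control array only, at 4.36 on the cast array and 7.38 on the control array, 1.70-fold lower as a plain ratio that is not a limit. The 3 subunit genes did not share a direction.

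Other S phase genes were close to equal. Pcna, the sliding clamp of the replication fork, had 316 on the cast array and 298 on the control array. The genomic interval listed for its probe covers only 33 bases. Tk1, the S phase thymidine kinase, had 62.4 on the cast array and 68.9 on the control array. Mki67, the antigen of proliferating cells, had 10.7 on the cast array and 8.85 on the control array with its brighter probe, a log2 ratio of 0.27 with a spot-level SD of 0.16, and its second probe gave 0.13. With normexp background correction Mki67 was at 0.06.

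Mitotic kinases and checkpoint genes held the second lowest value. Aurka, the Aurora kinase of the spindle poles, had a scaled signal of 59.1 on the cast array and 176 on the control array, 2.98-fold lower with a log2 ratio of -1.58 and a spot-level SD of 0.09. It stayed at least 2-fold lower in all 12 settings tried. Its relative Aurkc, a kinase of germ cells, was at 0.09 with a probe that had 5.79 on the cast array and 5.44 on the control array. A second Aurkc probe passed on the control array only, with 4.95 on the cast array and 11.3 on the control array, a log2 ratio of -1.20, so that the direction of Aurkc depends on the probe. Aurkb was below background. The median of the role was 0.12, and among brighter genes alone it was -0.25. Of the 8 measured genes, 6 (75%) were above 0, against 47% of all measured genes.

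The Polo-like kinases differed among themselves. Plk2, a stress-responsive member that also acts in centriole duplication, had 26.9 on the cast array and 16.1 on the control array, 1.67-fold higher, and 0.27 on the log2 scale with normexp background correction. Plk3 was at 0.17. Plk1, the main mitotic member, passed on the cast array only, with 6.73 on the cast array and 4.45 on the control array, 1.51-fold higher as a plain ratio that is not a limit. Plk5, an atypical member best known from the brain, passed on the control array only, with 2.99 on the cast array and 13.4 on the control array, at least 3.17-fold lower.

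Bub1b, which holds back anaphase until chromosomes are attached, was the reverse case. It had 7.87 on the cast array and 1.28 on the control array, where it was below background, and was at least 2.31-fold higher. Bub3, its partner at the kinetochore, was at 0.09 with 473 on the cast array and 445 on the control array. Cdc20, the activator of the anaphase-promoting complex, was at 0.16, and the phosphatases Cdc14a and Cdc14b, which act late in mitosis, were at -0.58 and 0.38.

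Centromere protein genes held the lowest value of the whole group, in an otherwise narrow role. Cenpa, the histone H3 variant that marks centromeres, had a scaled signal of 6.24 on the cast array and 20.2 on the control array, 3.24-fold lower with a log2 ratio of -1.70 and a spot-level SD of 0.16. With normexp background correction it was at -0.81. Cenpl and Cenpo, both of the inner kinetochore, were at -0.57 and 0.38, and both probes of Cenpo were above 0. Of the 12 measured centromere genes, 9 were below 0 and 3 (25%) above it, against 47% of all measured genes above 0. The median of the role was -0.06, which was 0.28 with no scaling and 0.02 with median scaling.

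All 5 ubiquitin ligase genes were below 0, while 47% of all measured genes were above it. The median of the 5 was -0.18, and it was 0.16 with no scaling. Cdc16, a subunit of the anaphase-promoting complex, had 347 on the cast array and 518 on the control array, a log2 ratio of -0.58. The conjugating enzyme Cdc34, which serves another class of ubiquitin ligases, was at -0.28. Cdc27, another subunit of the complex, was at -0.18 with its brighter probe and at 0.18 with its dimmer one.

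Of the 21 other measured Cdk genes, 3 (14.3%) were higher on the cast array by 1.5-fold or more and 1 (4.76%) was lower, against 7.04% and 8.25% of all measured genes. Cdk5r1 encodes p35, the activator of Cdk5, a kinase best known from neurons. It had a scaled signal of 32.5 on the cast array and 18 on the control array, 1.80-fold higher, and its second probe gave 0.70, while Cdk5 itself was at -0.42 with 104 on the cast array and 139 on the control array. Cdk5rap3, a protein first found through p35, had 860 on the cast array and 524 on the control array, 1.64-fold higher.

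Cdk11b, a kinase of transcription and splicing, had 1842 on the cast array and 1164 on the control array, 1.58-fold higher. Cdk18, of the PCTAIRE kinases, had 103 on the cast array and 179 on the control array, 1.74-fold lower. The median of these 21 genes was 0.01.

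Among the 20 measured genes with other known work, 2 (10%) were at least 1.5-fold lower and 0 higher, against 8.25% and 7.04% of all measured genes. Cdc40, a splicing factor, had a scaled signal of 17.7 on the cast array and 40.3 on the control array, 2.28-fold lower with a spot-level SD of 0.16. Cdc42ep2, an effector of Cdc42 that shapes actin, had 267 on the cast array and 517 on the control array, 1.93-fold lower. Cdc37l1, a relative of the chaperone partner Cdc37, was at -0.50. Without these genes, 4 of the 81 remaining measured genes were at least 2-fold lower and 3 higher, and the median was still -0.03.

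**Figure D3:**
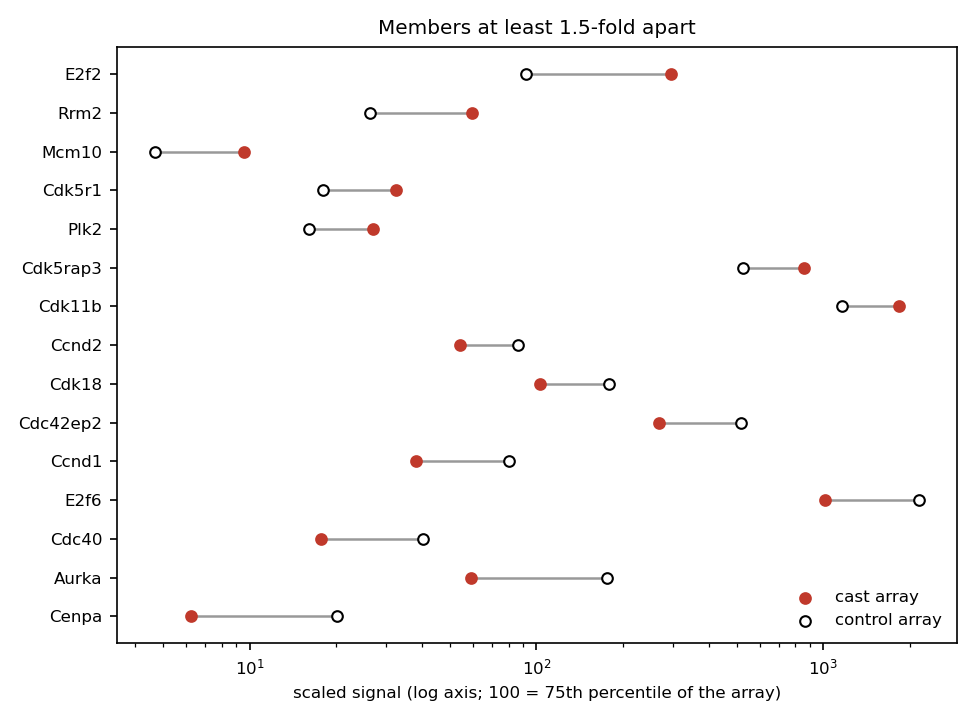
Scaled signal (log axis, 100 = 75th percentile of the array) of the 15 measured genes at least 1.5-fold apart, with the cast array as a filled red point and the control array as an open point, joined by a line. E2f2 has the widest gap of the 7 genes that are higher on the cast array and Cenpa that of the 8 that are lower. Points of different genes are not comparable with each other.

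Genes with several probes show how far a value holds across a transcript. Of 28 such genes measured by more than 1 probe, 22 had all probes in 1 direction, and the median gap between the highest and lowest probe was 0.16. Among the 22, the probes of Mcm3 share 43 bases and those of Aurkaip1 share 30, so that these pairs do not read separate parts of the transcript. In 3 genes the gap was at least 0.5, and their probes are printed here because they read different letters of the same gene. The remaining 73 measured genes rest on 1 probe that passed on both arrays.
Orc3 bright probe, mm9 chr4:34518076-34518135, minus strand: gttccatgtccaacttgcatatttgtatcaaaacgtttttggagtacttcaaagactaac
Orc3 dim probe, mm9 chr4:34517605-34517664, minus strand: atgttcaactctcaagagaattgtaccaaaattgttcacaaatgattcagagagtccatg
Cdk5rap1 bright probe, mm9 chr2:154161137-154161196, minus strand: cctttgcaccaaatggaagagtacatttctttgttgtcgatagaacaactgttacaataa
Cdk5rap1 dim probe, mm9 chr2:154191699-154191758, minus strand: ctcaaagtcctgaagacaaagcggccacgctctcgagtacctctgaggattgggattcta
E2f7 bright probe, mm9 chr10:110219255-110219314, plus strand: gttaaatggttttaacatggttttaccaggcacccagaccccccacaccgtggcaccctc
E2f7 dim probe, mm9 chr10:110224331-110224390, plus strand: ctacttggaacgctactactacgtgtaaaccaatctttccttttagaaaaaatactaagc
The bright probe of Orc3, an origin recognition subunit, had a scaled signal of 481 on the cast array and 487 on the control array, a log2 ratio of -0.02, and the dim probe had 5.91 on the cast array and 9.12 on the control array, a ratio of -0.63. For Cdk5rap1, a tRNA-modifying enzyme, the bright probe had 267 on the cast array and 344 on the control array, and the dim probe 31.2 on the cast array and 63.5 on the control array, ratios of -0.37 and -1.02. The 2 probes of E2f7 had 16.5 and 4.86 on the cast array against 19.4 and 3.94 on the control array, and disagreed in sign.

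Promoter letters were looked up for the same genes, because E2F factors and the repressor complexes of resting cells act through short sites near the start of many cell cycle genes. The windows come from RefSeq on GRCm38.p6 and hold 300 bases, 250 before the start and 50 after it. Of the 131 genes, 113 had a window, with 132 windows in all. Searched on both strands were 4 E2F-type strings, the first being TTCCCGC, the next one TTGGCGC, followed by TTCGCGC, and the last one TTGCCGC. The cell cycle homology region (CHR) was searched as TTTGAA and also in the form TTCGAA, and the box CCAAT as such, whose letters can overlap the reverse of TTGGCGC. Capitals mark the matches in the windows of the genes 2-fold or more apart, the 3 higher on the cast array first. Ccnd1 had no window here, and E2f2 had 2.
E2f2 promoter, GRCm38.p6 chr4:136172024-136172323, plus strand: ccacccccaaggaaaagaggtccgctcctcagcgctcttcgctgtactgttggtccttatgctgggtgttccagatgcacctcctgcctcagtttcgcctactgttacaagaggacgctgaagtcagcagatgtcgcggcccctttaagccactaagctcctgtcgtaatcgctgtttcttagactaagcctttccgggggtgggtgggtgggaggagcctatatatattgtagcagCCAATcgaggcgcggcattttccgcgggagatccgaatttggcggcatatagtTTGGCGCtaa
E2f2 second promoter, GRCm38.p6 chr4:136180532-136180831, plus strand: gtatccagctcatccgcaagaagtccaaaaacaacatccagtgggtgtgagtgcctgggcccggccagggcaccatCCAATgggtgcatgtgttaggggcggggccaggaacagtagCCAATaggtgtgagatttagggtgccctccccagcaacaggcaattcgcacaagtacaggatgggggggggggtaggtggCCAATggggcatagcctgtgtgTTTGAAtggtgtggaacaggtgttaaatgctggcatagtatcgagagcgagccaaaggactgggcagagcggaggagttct
Rrm2 promoter, GRCm38.p6 chr12:24708004-24708303, plus strand: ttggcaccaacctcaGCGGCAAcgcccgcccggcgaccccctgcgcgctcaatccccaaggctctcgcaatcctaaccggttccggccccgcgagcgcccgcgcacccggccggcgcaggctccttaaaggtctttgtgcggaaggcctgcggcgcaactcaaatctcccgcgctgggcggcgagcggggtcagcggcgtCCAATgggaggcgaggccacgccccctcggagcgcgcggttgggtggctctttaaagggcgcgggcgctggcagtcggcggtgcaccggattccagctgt
Mcm10 promoter, GRCm38.p6 chr2:5012742-5013041, minus strand: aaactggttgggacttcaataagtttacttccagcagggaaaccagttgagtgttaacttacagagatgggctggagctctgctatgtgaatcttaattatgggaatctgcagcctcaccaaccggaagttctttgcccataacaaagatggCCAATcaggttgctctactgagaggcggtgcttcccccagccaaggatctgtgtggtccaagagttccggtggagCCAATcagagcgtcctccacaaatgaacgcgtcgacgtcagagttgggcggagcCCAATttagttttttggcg
Aurka promoter, GRCm38.p6 chr2:172370521-172370820, minus strand: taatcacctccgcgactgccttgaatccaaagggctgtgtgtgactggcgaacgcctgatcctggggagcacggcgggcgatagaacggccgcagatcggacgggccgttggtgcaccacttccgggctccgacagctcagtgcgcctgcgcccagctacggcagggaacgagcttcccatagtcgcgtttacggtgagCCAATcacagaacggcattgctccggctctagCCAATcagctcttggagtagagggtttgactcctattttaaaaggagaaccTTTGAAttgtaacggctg
Cenpa promoter, GRCm38.p6 chr5:30666636-30666935, plus strand: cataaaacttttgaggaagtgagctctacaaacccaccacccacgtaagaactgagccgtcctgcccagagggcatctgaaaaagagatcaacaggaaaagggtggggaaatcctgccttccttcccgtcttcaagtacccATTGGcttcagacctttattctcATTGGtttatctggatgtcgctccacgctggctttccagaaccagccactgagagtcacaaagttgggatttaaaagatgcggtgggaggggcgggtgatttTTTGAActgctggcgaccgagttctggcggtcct
Cdc40 promoter, GRCm38.p6 chr10:40883094-40883393, minus strand: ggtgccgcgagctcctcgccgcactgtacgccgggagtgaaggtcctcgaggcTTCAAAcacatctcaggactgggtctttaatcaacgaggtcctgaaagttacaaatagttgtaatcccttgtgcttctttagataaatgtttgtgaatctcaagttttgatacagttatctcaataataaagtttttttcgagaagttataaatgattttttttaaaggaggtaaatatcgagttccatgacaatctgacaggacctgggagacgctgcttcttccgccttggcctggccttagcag
E2f6 promoter, GRCm38.p6 chr12:16810715-16811014, plus strand: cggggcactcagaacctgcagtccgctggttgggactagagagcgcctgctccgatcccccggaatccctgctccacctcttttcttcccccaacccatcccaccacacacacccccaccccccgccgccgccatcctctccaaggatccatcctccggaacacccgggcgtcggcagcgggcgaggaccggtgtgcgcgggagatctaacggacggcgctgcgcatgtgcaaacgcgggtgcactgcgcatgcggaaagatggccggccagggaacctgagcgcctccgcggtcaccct
The first base of the transcript counts as 1 and the base before it as -1. The first window of E2f2 held TTGGCGC from 41 to 47 and CCAAT from -13, and its second held TTTGAA from -31 to -26 and CCAAT at 3 places. Rrm2 held GCGGCAA, the reverse of TTGCCGC, from -235 and CCAAT from -50, and Mcm10 held CCAAT at 3 places and neither of the other motifs. Aurka held TTTGAA from 33 to 38 with CCAAT from -51 and -19, and Cenpa held TTTGAA from 17 to 22 with CCAAT in reverse from -109 and -86. Cdc40 held TTTGAA in reverse from -197 and no CCAAT, and E2f6 held none of the motifs. A match describes these letters only, and factor binding was not measured.

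Across the group, 29.5% of the windows held an E2F-type string, against 9.57% of all 32851 windows of the table. The CHR was in 26.5%, against 19.2%, and CCAAT in 54.5%, against 37.4%. The roles differed. Origin licensing genes had an E2F-type string in 12 of 22 windows (54.5%), whereas mitotic kinase and checkpoint genes had one in 1 of 17 (5.88%) and the CHR in 9 of 17 (52.9%). Measured genes at least 1.5-fold higher held an E2F-type string in 2 of 8 windows, those at least 1.5-fold lower in 0 of 6, and those within 1.5-fold in 23 of 93 (24.7%).

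A companion list took in Cdk inhibitors, pocket proteins and arrest genes, and also Tfdp1 and Tfdp2, which are partners of E2F factors. Of its 18 genes, 17 were measured and the median log2 ratio was 0.20. Above 0 were 14 (82.4%), against 47% of all measured genes. Tfdp1 and Tfdp2 are both counted among those above 0. At least 1.5-fold higher were 6 of the 17, Tfdp2 included, and lower 2. These were 35.3% and 11.8%, against 7.04% and 8.25% of all measured genes. Cdkn1a (p21), which blocks Cdk2 complexes, had a scaled signal of 255 on the cast array and 66.1 on the control array, a log2 ratio of 1.95.

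Rb1, the retinoblastoma protein that holds E2F factors, had 548 on the cast array and 152 on the control array, a log2 ratio of 1.85. The antiproliferative gene Btg2 was at 1.10, and the E2F partner Tfdp2 was at 0.84 with a second probe at 1.30. At the other end, the Cdk4 and Cdk6 inhibitor Cdkn2b was at -0.86, with 25.7 on the cast array and 46.6 on the control array, and the Cdk1-inhibiting kinase Wee1 was at -0.70. Cdkn2a was below background on both arrays.

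Replication and mitosis genes that the name rule does not cover were also spread around 0. Of 38 other replication genes, 34 were measured with a median of 0.01, 4 (11.8%) were at least 1.5-fold higher and 2 (5.88%) lower, against 7.04% and 8.25% of all measured genes. Prim1, the primase, had a scaled signal of 12.7 on the cast array and 27.5 on the control array, a log2 ratio of -1.11, and Gmnn (geminin), which blocks relicensing, had 11.1 on the cast array and 22.2 on the control array, a ratio of -1.0. Pole, the leading-strand polymerase, was at 0.95, and the single-strand binding protein Rpa1 at 0.70. Dna2, also of this list, passed on the cast array only.

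Of 54 other mitosis genes on the array, only 27 were measured, while Kif20a and Zwilch passed on the control array only. The median of the 27 was -0.04, with 12 (44.4%) above 0 and 15 below, against 47% of all measured genes above 0. At least 1.5-fold higher were 3 (11.1%) and lower 0, against the same 7.04% and 8.25%. Anln, an actin-binding protein of the cleavage furrow, had 55.9 on the cast array and 20.7 on the control array, a log2 ratio of 1.43. The chromosome kinesin Kif22 was at 0.85, the spindle protein Tacc3 at 0.70 and Incenp, of the Aurora B complex, at 0.54. Among 12 measured cyclins of other letters, the median was -0.08, with 25% at least 1.5-fold higher and 16.7% lower. Ccnf, also of that list, passed on the control array only. Ccni was at 0.82, Ccnl2 at 0.72 with a second probe at 0.02, Ccnk at 0.62 and Ccng1, a p53 target, at -0.91.

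Markers of the cells that could hold these transcripts differed as well. Their counts above and below 0 stand beside 47% of all measured genes above 0. Satellite cell markers were above 0 in 5 of 6 measured cases, and their summed scaled signal was 979 on the cast array and 484 on the control array. Most of both sums came from Cdh15, with 807 on the cast array and 317 on the control array. Pax7 was at 0.08 and Vcam1, the marker below 0, at -0.72. Calcr passed on the control array only, and Myf5 was below background on both. Fibroblast markers were below 0 in 6 of 6, with a sum of 11038 on the cast array and 15660 on the control array. Endothelial markers were below 0 in 4 of 5, with a sum of 836 on the cast array and 1132 on the control array.

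Macrophage markers were above 0 in 4 of 6, with a sum of 1644 on the cast array and 2017 on the control array and with Cd68 and Cd163 below background on both. Itgam, at 953 on the cast array and 1381 on the control array, makes up most of that sum and sets its direction. The other leukocyte markers summed to 425 on the cast array and 261 on the control array, with 4 of 6 above 0, the neutrophil genes S100a8 and S100a9 at 2.21 and 2.23, and Ms4a1 below background on both. Schwann cell markers were above 0 in 2 of 4, with a sum of 211 on the cast array and 203 on the control array. The part of these cell types in the values of the cell cycle genes was not tested.

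**Figure D4:**
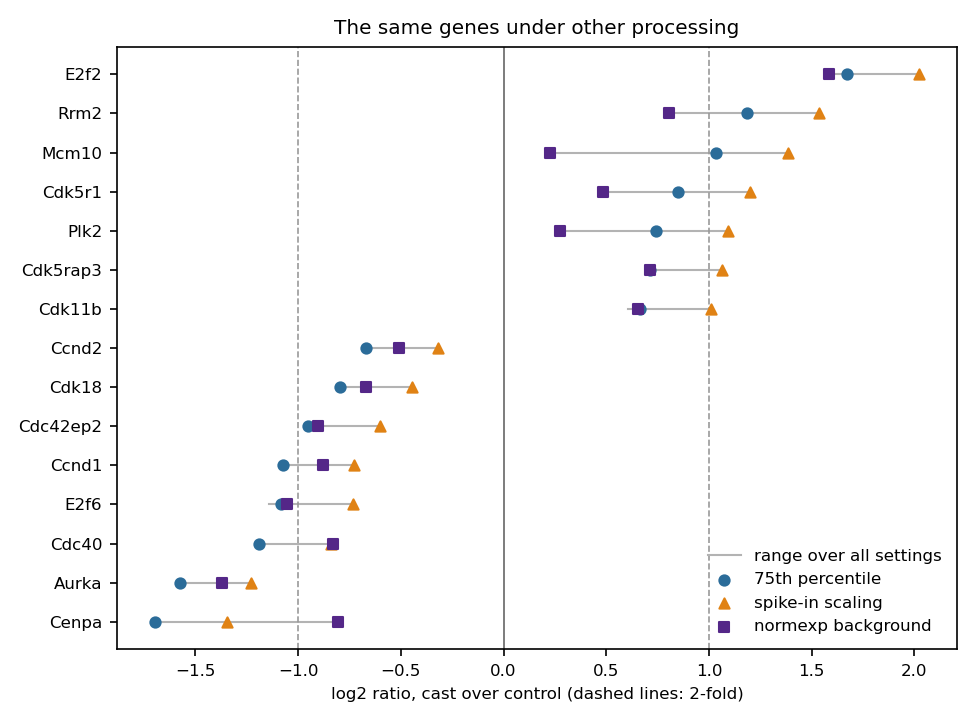
Log2 ratio of cast over control (horizontal axis) of the 15 genes at least 1.5-fold apart, with the 75th percentile scaling (circle), spike-in scaling (triangle) and normexp background correction (square); the grey line is the range over all settings and dashed lines mark 2-fold. Every gene keeps its sign, while Mcm10 and Plk2 come close to 0 with normexp and Ccnd2 does so with spike-in scaling.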

How the data were processed

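Total RNA of the gastrocnemius was pooled within each group, labelled with Cy3 and hybridised, per the labels' protocols. Per the submitters' processing notes, the authors used Agilent Feature Extraction 9.5 to read the spots. Its processed intensity is background-subtracted and detrended within an array, and probe coordinates are on mm9, per the file headers. By comparison, the deposited value table holds the same intensity as a percentage of an array's 75th percentile, taken over its 44397 spots, with 55.4% of values rounded to whole numbers and column medians of 8.70 for cast and 9.00 for control. It served as an alternative.

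Processed signals were log2-transformed, replicate spots averaged and each array's 75th percentile over gene probes subtracted, leaving out control spots and spots flagged as non-uniform (9 on the cast array and 2 on the control array, none of them on a probe described here). A probe counted as well above background where more than 0.5 of its spots had the flag. Where 1 array only passed, the fold was set against the higher of the other array's lowest passing signal and the dim probe's own. Of 39429 probes, 26055 were named by accession through the RefSeq gene table and the others by the name on the array, and 8 of the 131 genes had an updated symbol. Exon and untranslated positions of the probes were not looked up.

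No test was made, with 1 array per group. The red cell marker list is not reported here. The rule for members uses names alone, but the rule, lists and settings were chosen with earlier results of these data known. Genes that could be named were those of the cyclin, E2F, licensing, nucleotide and mitotic kinase roles, others at least 1.5-fold apart or with a bound of that size, up to 3 most distant of each other role and up to 4 of each companion list. A few further genes were named after their values were seen. The calculation was tested on simulated data. Python 3.11.15, pandas 2.3.3, R 4.3.3 and limma 3.58.1 (normexp with an offset of 50) were used.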

Additional observations from a re-analysis of the deposited data

How the results depend on the processing

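Of the 15 genes at least 1.5-fold apart, 15 kept their sign in all 12 settings that gave a value, and 10 stayed at least 1.5-fold apart in each; the exceptions were Mcm10, Plk2 and Cdk5r1 with normexp, and Ccnd2 and Cdk18 with no or spike-in scaling, Ccnd2 also with normexp. No value at least 1.5-fold apart changed sign. With no scaling the median of the 101 genes was 0.31, with 7 genes at least 2-fold higher, 2 lower and 14 at least 1.5-fold higher. With spike-in scaling it was 0.32, with 7, 2 and 15. Relative to the 75th percentile, these settings differ by 1 constant for all genes, 0.34 and 0.35. Why unscaled signals were higher on the cast array was not tested. All 11 role medians were above 0 in both settings, against 4 with the 75th percentile. With normexp, 1 gene was at least 2-fold higher, 2 lower and 4 at least 1.5-fold higher. Adding genes above background on 1 array gave 5 at least 2-fold higher, and no filter gave 7, with 12 at least 1.5-fold higher and 14 lower. Among brighter genes alone the counts were 1 and 2 at 2-fold and 3 and 4 at 1.5-fold, from fewer genes. With 1 signal limit for both arrays, 2 genes passed on the control array only, against 4. Where a cause is not given, the cause was not tested. Median, quantile and loess scaling, the mean of probes, the deposited table and the array's own names left each count within 1.5 times. Among genes with a probe above background on 1 array, Aurkc was at -1.20, against 0.09. With normexp, Mcm10, Cenpa, Cdc45 and Plk2 moved towards 0, to 0.23, -0.81, 0.06 and 0.27. Its offset of 50, added to every unscaled signal, draws the ratio of a dim gene towards 0 by construction. Signals near background limit the values of Mcm10, Cdc45 and, on the cast array, Cenpa. Plk2, at 26.9 on the cast array and 16.1 on the control array, was further from the limits of 4.23 and 3.40. No paired analysis was possible because each group had 1 array.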

Other observations

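Of the probes of these genes, 36 were below background on both arrays. The median log2 ratio of their listed signals was 0.30, and those signals are in part surrogate values of the scanner software, so that no level is read from them.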
